A study of Mus musculus with 4 samples.

Results

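Chromatin accessibility was examined at 46 genes that encode lysosomal proteins, in microglia with and without the transcription factor IRF8. The genes were 13 proteases, 12 glycosidases and sulfatases, 8 lipid hydrolases, activators and lipid transfer proteins, 8 membrane proteins and 5 components of the proton pump, taken from a list of lysosomal enzyme, membrane and pump genes. Accessibility was read from ATAC-seq, in which the Tn5 transposase cuts open DNA and inserts sequencing adapters, so that a peak of cut sites marks accessible chromatin. There were 2 libraries from WT and 2 from IRF8KO mice. All 4 came from untreated C57BL/6 mice aged 3 months, from brain cells freed without enzyme and sorted as microglia. The labels do not state how the Irf8 allele was made or whether the replicates of a genotype came from separate animals, so the p-values below measure the spread between these libraries, which may be technical.

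The lysosome is the acidic compartment in which a macrophage breaks down what it has engulfed. Cathepsins and other proteases cut proteins, glycosidases and sulfatases trim sugar chains, lipid hydrolases work together with saposins and lipid transfer proteins, and the V-type ATPase pumps protons to keep the lumen acidic. Many of these genes carry a CLEAR element at the promoter, a palindromic E-box read by TFEB and the related MiT factors. Microglia depend on lysosomes to digest myelin, synapses and dead cells, and IRF8 is a factor of the myeloid lineage that binds ETS-IRF composite elements together with PU.1.

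All deposited peaks that overlapped a gene body or the 5 kb on either side of it were used (GRCm38, GENCODE M21). WT replicates 1 and 2 contributed 367 and 359 such peaks, and the IRF8KO replicates 335 and 341. Peaks with −log10 q of 2 or more, called strict, were merged over the 4 libraries into regions, of which 355 of 155546 lay at the lysosomal genes. Of these, 104 were promoter regions, within 1 kb of an annotated transcription start site (TSS), and 251 were distal. Each region's value in a library is the highest summit pileup of cut sites relative to the tags in the file header, given as pileup per-million tags and written PPM. The headers listed 46948938 and 48896408 tags for the WT pair and 78793572 and 66224648 for the IRF8KO pair, of 50 bp in the former and 49 bp in the latter. Effects of depth or tag size on a difference therefore cannot be told apart from genotype.

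Of 9 promoters of microglia marker genes, each WT library had strict peaks at 9 and each IRF8KO library at 8. Of markers of other cells, both libraries of each genotype held 2 of 4 for border macrophages. Counts for astrocytes were 3 and 2 of 4 in WT and 1 in each IRF8KO library, and for B or T cells 1 of 3 in each WT and 0 in each IRF8KO library. For endothelial cells they were 3, 2, 2 and 2 of 3, for oligodendrocytes 2, 2, 1 and 2 of 3, for neurons 1, 2, 2 and 1 of 3, and for monocytes and neutrophils 1, 0, 1 and 1 of 6, in the order WT 1, WT 2, IRF8KO 1, IRF8KO 2. Promoters can be open without expression, and the part of other cells in the results was not tested. The Irf8 promoter had a pileup of 2.07 and 1.49 PPM in WT and 0.863 and 1.36 in IRF8KO. The sources used here do not say which part of the gene is missing, so this peak does not check the labels. The median region with a peak in every library stood at 0.767 and 0.614 PPM in WT and at 0.444 and 0.695 in IRF8KO, with IRF8KO replicate 1 the lowest. Differences were therefore taken after each library was centred on that median.

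The E-box sites of the promoters are shown first, because they are the sequence feature these genes are known for. Of the 74 promoter regions at lysosomal genes that were strict in all 4 libraries, 17 held CACGTG within 100 bp of the summit, or 23.0% (95% Wilson interval 14.9% to 33.8%, counting error only). The share over all 15805 such promoter regions was 7.68%. Within 250 bp of the summit the shares were 25.7% and 13.3%. Other motifs also stood above the share of all promoters in the same 74 regions, within 100 bp: PU.1 (GAGGAAGT) 13.5% against 4.6%, AP-1 (TGANTCA) 9.46% against 4.14%, ISRE (GAAANNGAAA) 5.41% against 2.16% and CEBP (TTGCNNAA) 9.46% against 6.08%. The ETS-IRF composite (GGAANNGAAA) was in 2.70% against 2.39%. An excess is thus not particular to the E-box, and none was tested. These 17 regions belonged to 16 genes, and each was the gene's own promoter. The longer palindrome TCACGTGA, which contains the E-box, was found in 8 of the 74 regions, 10.8% against 1.18% of all. Both were searched on both strands and are matches of letters, not measured binding. The sites with TCACGTGA are given below on the plus strand of GRCm38, with the E-box in capitals and 10 bases on each side.
Lamp1, first site, chr8:13159211-13159236: accctcggctCACGTGaccggcgggc
Lamp1, second site, chr8:13159238-13159263: cggcactgctCACGTGacaggcgctg
Ctsd, chr7:142387910-142387935: ctcaacgggtCACGTGagacgcgggc
Ctsb, chr14:63122432-63122457: ggtcaagcatCACGTGacgaatcagc
Hexa, chr9:59539622-59539647: ccctcccgttCACGTGaccctccgat
Arsa, chr15:89476162-89476187: cgcccgcggtCACGTGacaattggct
Gla, chrX:134601184-134601209: gagagttgctCACGTGaccgagatct
Atp6v0d1, chr8:105566052-105566077: caccgcgtctCACGTGaccgcagtag
Atp6v1a, chr16:44139375-44139400: ttaagcctatCACGTGatttaaaaaa

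In these sites the E-box is framed by T and A on its 2 sides, the form of the CLEAR element. Both Lamp1 sites lay under 1 promoter peak, and Hexa carried a second E-box outside the longer palindrome. The other 8 genes with an E-box at their own promoter were Atp6v1h, Idua, Lamtor1, Glb1, Cd63, Naglu, Gaa and Ctsf. In RefSeq promoter sequences (GRCm38.p6), from 250 bases before to 50 after each gene's start, 40 of the 46 genes were matched. The E-box was present in 16 of these 40, or 40.0%, against 8.09% of 27025 genes, and TCACGTGA in 7, or 17.5%, against 1.13%. None of the 8 promoter regions with TCACGTGA differed between genotypes at the threshold (0 at an unadjusted limma p under 0.05), and their differences ran from -0.39 to 0.05 (log2, IRF8KO minus WT). Among the 17 E-box regions 1 was called, that of Cd63, described below.

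Nearly all of the lysosomal genes had an open promoter in every library. A strict peak lay within 1 kb of an own TSS of 44 of the 46 genes in each of the 4 libraries. The exceptions were Ctsk, the collagen-degrading cathepsin best known from osteoclasts, and Atp6v0d2, a pump subunit isoform of osteoclasts and macrophages. Neither had a deposited peak of any strength at its own TSS in any library. The share over all genes was not counted. By region, 71.15% of the 104 promoter regions were strict in all 4 libraries, against 59.81% of all promoter regions. The mean pileup of the strongest own promoter ranged from 0.650 to 8.01 PPM over the 44 genes, with a median of 2.89. For 11 of the 44 the region also lay within 1 kb of a start of another gene, among them Npc2 (with Isca2), Atp6v1a (with Naa50) and Cln3 (with Apobr), and such a peak cannot be given to one gene.

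**Figure D1:**
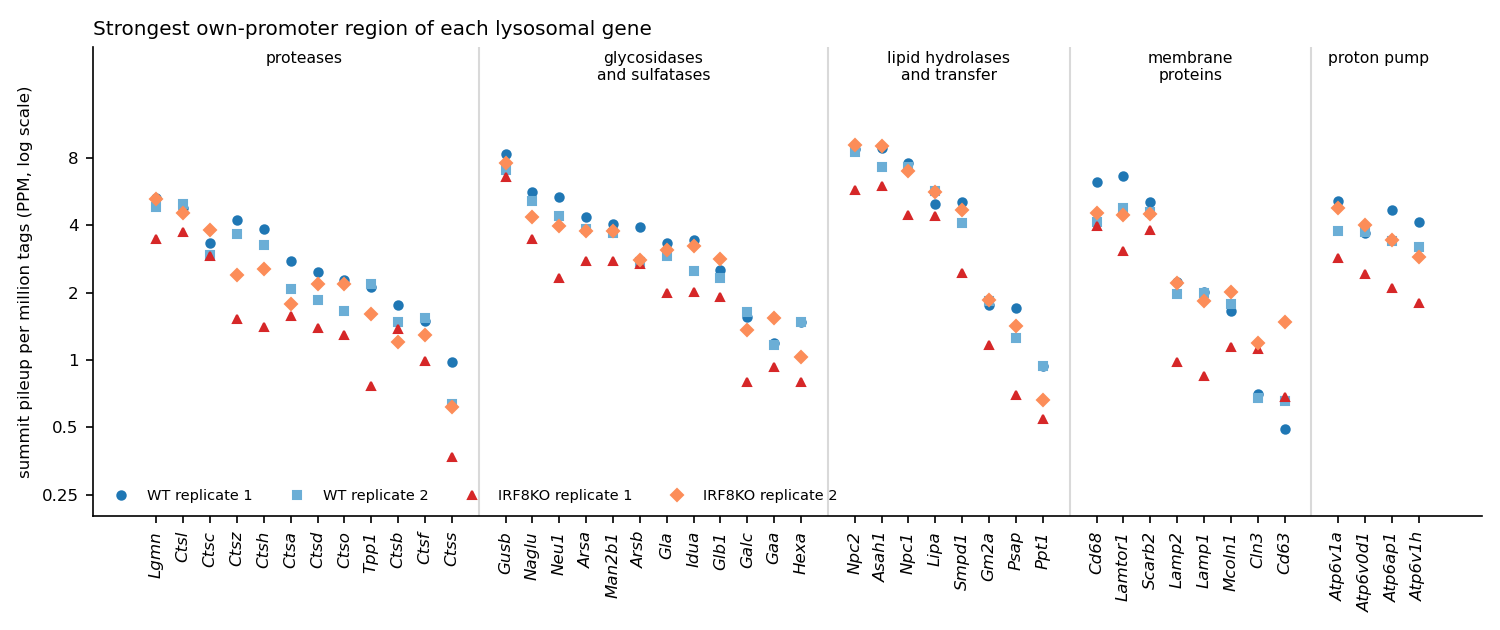
Summit pileup in PPM (log scale) of the strongest own-promoter region of the 44 lysosomal genes that had one, by role and ordered by the mean of the 4 libraries. Each point is 1 library: blue marks are WT and red or orange marks are IRF8KO. IRF8KO replicate 1 (red triangles) is the lowest library for 41 of the 44 genes, while Cln3 and Cd63 have both IRF8KO libraries above both WT libraries.

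The strength of the promoter peak varied more between genes than between genotypes. Among the proteases, Lgmn, the asparaginyl endopeptidase legumain, had the strongest promoter, at 5.28 and 4.83 PPM in WT and 3.48 and 5.21 in IRF8KO. Ctss, a cathepsin that trims the invariant chain of MHC class II, had the weakest, at 0.980, 0.634, 0.368 and 0.619 in the same order. The groups overlapped for Lgmn, and for Ctss both IRF8KO libraries lay below both WT libraries, by a margin far inside the interval of the difference (-0.42 ± 0.58, 95% interval, limma adjusted p 0.323).

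Of the glycosidases and sulfatases, Gusb, the beta-glucuronidase, led with 8.31 and 7.06 PPM in WT and 6.55 and 7.60 in IRF8KO. Hexa, the alpha subunit of beta-hexosaminidase, was lowest with 1.47, 1.47, 0.800 and 1.03. Among lipid genes the cholesterol transfer protein gene Npc2 was highest, with 8.73 and 8.47 in WT and 5.72 and 9.11 in IRF8KO. Ppt1, a palmitoyl-protein thioesterase, was lowest, with 0.937, 0.941, 0.546 and 0.664. Cd68, a macrophage lysosomal glycoprotein, led the membrane proteins with 6.26, 4.13, 3.97 and 4.53. Atp6v1a, the catalytic subunit of the pump, had 5.13, 3.78, 2.87 and 4.77, and Atp6v1h, a regulatory subunit, had the lowest pump promoter with 4.15, 3.21, 1.79 and 2.88. Of these genes, Hexa, Ppt1 and Atp6v1h had both WT libraries above both IRF8KO libraries in PPM. None of the 3 differed at the threshold after centring.

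Promoter differences between genotypes were small. Of 78 promoter regions at lysosomal genes with a peak in all 4 libraries, 3 were higher and 4 lower in IRF8KO at an adjusted p under 0.05 (limma across 58550 regions with Benjamini-Hochberg adjustment), regions past this threshold being named called. That is 8.97% of them. Of the 78, 63 lay within 1 kb of a TSS of the lysosomal gene itself, and the rest near starts of other genes only. All 7 calls were among the 63, or 11.1%. The background over all 17511 promoter regions fitted was 14.0%, with 6.52% higher and 7.46% lower. The median difference was 0.04 on the log2 scale, against -0.03 for all promoter regions. Taking 1 own promoter per gene, 39 of 44 lay within 0.5 and 42 within 1 log2 unit of 0, and 22 lay above 0. The median 95% interval of these values was ± 0.36. Without centring, limma called 0 lysosomal promoter regions in either direction (0 higher and 4 lower at an unadjusted p under 0.05), and over all promoter regions 0.742% were then higher and 2.92% lower.

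All 4 lower promoter regions belonged to proteases, of whose 22 fitted promoter regions they were 18.2%. Over all fitted promoter regions 7.46% were lower, and the difference between these shares was not tested. They were 2 at Ctsz, a carboxypeptidase, and 1 each at Ctsh, an aminopeptidase, and Tpp1, a tripeptidyl peptidase. With quantile normalization 7 lysosomal promoter regions were lower, 4 at proteases and 1 each among the glycosidases and sulfatases, the membrane proteins and the proton pump. The stronger Ctsz region (chr2:174437467-174438075, intron) stood at 4.24 and 3.66 PPM in WT and 1.52 and 2.40 in IRF8KO. Both WT libraries were higher, and the log2 difference was -0.74 ± 0.36 (limma adjusted p 7.77e-04). It kept its call when any 1 library was left out, and lost it with fold enrichment in place of pileup (-0.45, limma adjusted p 0.329). The region over the Ctsz start had 1.77 and 1.49 in WT and 0.673 and 1.03 in IRF8KO (-0.66 ± 0.46, limma adjusted p 0.0242), and leaving out any 1 library ended that call, with adjusted p from 0.0726 to 0.178, as did fold enrichment (-0.38, 0.561) and filling missing values (-0.63, 0.114).

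The Ctsh promoter had 3.86 and 3.27 PPM in WT and 1.41 and 2.54 in IRF8KO (-0.61 ± 0.36, limma adjusted p 0.00779). The groups did not overlap, but the call was lost without WT replicate 1 (limma adjusted p 0.0645), without WT replicate 2 (0.126) and without IRF8KO replicate 1 (0.0744). With fold enrichment the Ctsh difference was -0.12 (limma adjusted p 0.823). The Tpp1 promoter had 2.11 and 2.19 in WT and 0.762 and 1.60 in IRF8KO (-0.66 ± 0.43, limma adjusted p 0.0164), and lost its call without IRF8KO replicate 1 (0.23), without WT replicate 2 (0.319) and with missing values filled (0.0737). The count of lower protease promoters was 2 without WT replicate 1, 1 without WT replicate 2, 1 without IRF8KO replicate 1 and 3 without IRF8KO replicate 2.

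The 3 higher promoter regions lay at Cd63, Cln3 and Gla. Cd63, a tetraspanin of late endosomes, had the weakest own promoter of the membrane proteins, with 0.490 and 0.654 PPM in WT and 0.685 and 1.48 in IRF8KO. The difference was 1.14 ± 0.55 (limma adjusted p 9.03e-04), and IRF8KO replicate 1 lay close to WT replicate 2 in PPM. The call ended without IRF8KO replicate 2 (limma adjusted p 0.12) and without WT replicate 1 (0.0932), and with fold enrichment the difference was 0.34 (0.518). At Cln3, a lysosomal membrane protein lost in juvenile Batten disease, the called region is also within 1 kb of a start of Apobr and cannot be given to one gene. It stood at 0.703 and 0.675 in WT and 1.12 and 1.19 in IRF8KO (1.05 ± 0.51, limma adjusted p 9.43e-04), and its call ended without IRF8KO replicate 1 (0.104) and with fold enrichment (0.48, adjusted p 0.227). The Gla region lay in an intron near a start of Hnrnph2 and had 0.447 and 0.389 in WT and 0.470 and 0.891 in IRF8KO (0.94 ± 0.61, limma adjusted p 0.0152). It lost its call when either IRF8KO library or WT replicate 1 was left out, with adjusted p of 0.054 to 0.142.

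Distal regions differed more often. Of the 251 distal regions, 116 had a peak in all 4 libraries and were fitted, and 135 lacked one in at least 1 library. Of the 116, 25 were higher and 18 lower in IRF8KO, 37.1% in all. The background over 41039 fitted distal regions was 30.9%, of which 16.3% were higher and 14.6% lower. Without centring the split at lysosomal genes turned to 2 higher and 9 lower, and over all distal regions to 3.69% higher and 8.49% lower. The median of all fitted regions was then -0.31. Calls were fewer in both directions, and the cause was not tested. The 18 regions lower after centring, like the 4 lower promoters, had both WT libraries above both IRF8KO libraries in PPM. Of the 28 higher regions of either kind, 20 had both IRF8KO libraries above both WT libraries on that scale. On the centred scale, on which they were called, all 50 called regions were apart. These counts thus describe regions chosen by the test, and no share over all called regions was taken. The count of called distal regions was 25 without IRF8KO replicate 2 and 29 to 33 without any other library.

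The called distal regions belonged to 22 of the 46 genes. In 10 genes they were higher only, in 8 lower only, and in 4 (Arsb, Lgmn, Npc2 and Scarb2) they went both ways. Regions of 1 gene share a locus and are not independent of each other. For 14 genes there was neither a called region nor one restricted to a genotype.

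**Figure D2:**
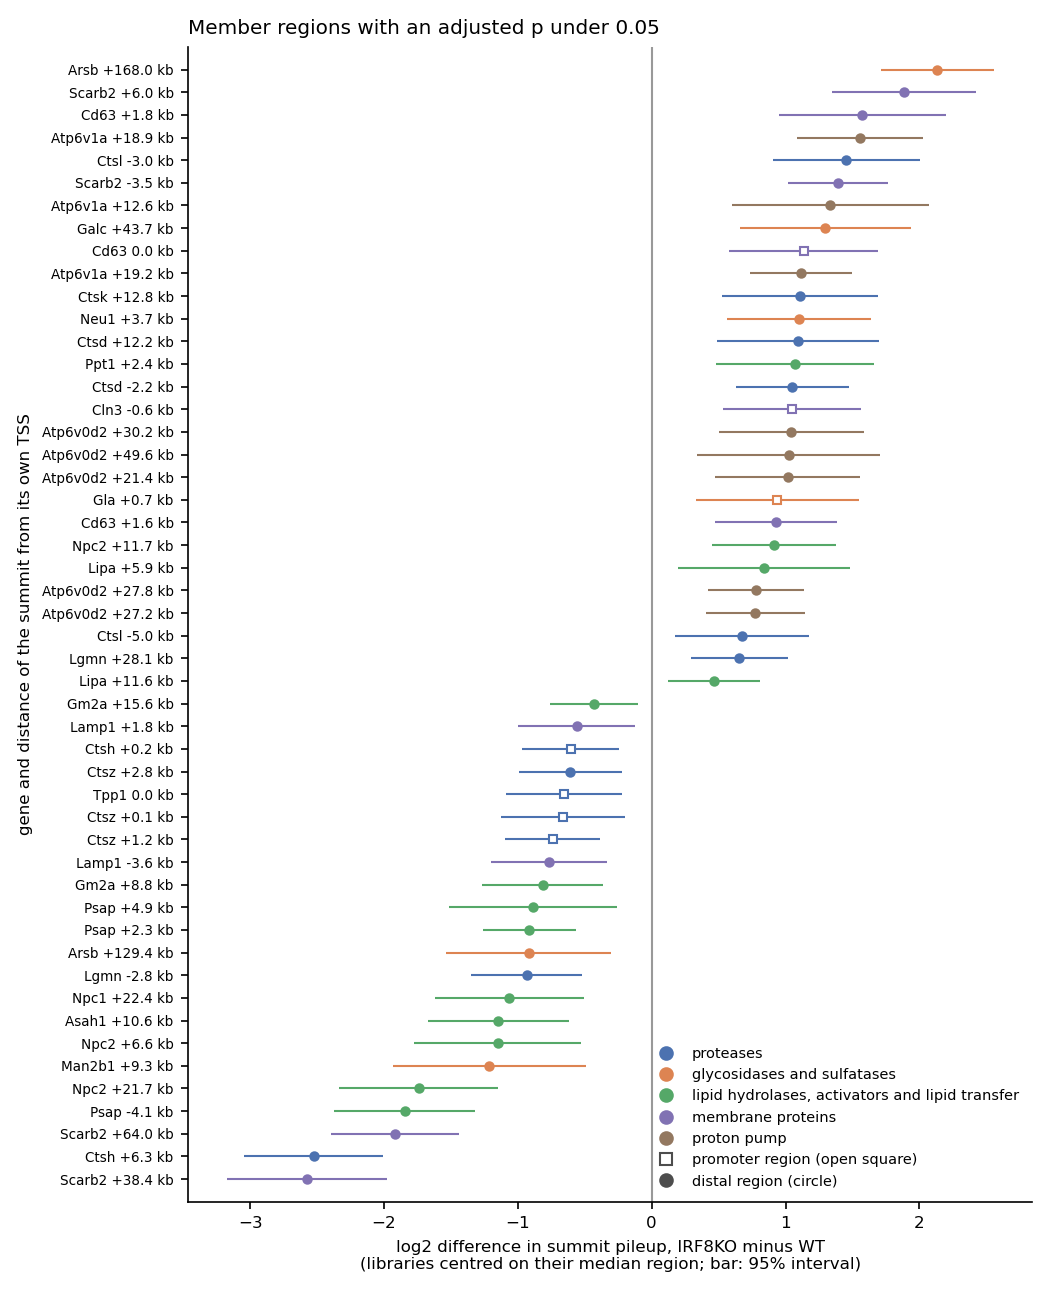
Log2 difference in summit pileup (IRF8KO minus WT, libraries centred on their median region) of the 50 called regions at lysosomal genes, with 95% intervals, labelled by gene and distance of the summit from the nearest own TSS. Colours give the role, open squares promoter and circles distal regions. The lowest values are a Scarb2 intron (-2.58) and a Ctsh intron (-2.53), and the highest an Arsb intron (2.13). The 8 called proton pump regions, all at Atp6v0d2 and Atp6v1a, lie to the right.

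Distal calls were counted by role, beside shares of 16.3% higher and 14.6% lower over all fitted distal regions. At the 5 proton pump genes 8 of 17 fitted distal regions were higher (47.1%) and 0 lower (9 and 0 at an unadjusted limma p under 0.05). The median difference was 0.71, and 16 of the 17 lay above 0. The lipid genes had 4 higher and 9 lower of 25 (16.0% and 36.0%), with a median of -0.11. Proteases had 6 higher and 3 lower of 30, membrane proteins 4 and 4 of 23, and glycosidases and sulfatases 3 and 2 of 21. The difference between roles was not tested. All 8 called pump regions belonged to Atp6v0d2 and Atp6v1a, which held 7 and 5 of the 17 fitted. The other 5 fitted regions, 4 at Atp6v0d1 and 1 at Atp6ap1, were not called, and Atp6v1h had 0 fitted. The 9 lower lipid regions belonged to 5 genes. In the same fit, 11 further pump genes outside the 46 went both ways, with 5 higher and 3 lower of 25 fitted distal regions. That is 32.0%, beside 30.9% of all fitted distal regions, with a median of 0.08. Their lower regions were at Atp6v0e (-1.50), Atp6v0a1 (-1.31) and Atp6ap2 (-1.01). Without centring the pump count was 0 higher (2 at an unadjusted p under 0.05) and the lipid count 4 lower. Without IRF8KO replicate 2 the pump count was 4 higher, and without WT replicate 1 and WT replicate 2 the lipid count was 5 and 6 lower. The higher lipid count was 1 without IRF8KO replicate 2 and 2 without any other library. The higher protease count was 2 without WT replicate 2, 3 without IRF8KO replicate 2, 4 without IRF8KO replicate 1 and 5 without WT replicate 1. Without centring the limma test called 0 higher regions at proteases and 0 at lipid genes (1 and 0 at an unadjusted p under 0.05). With 1 library left out, the lower count ran from 2 to 4 at proteases and from 2 to 3 at membrane proteins, and was at most 1 at glycosidases and sulfatases. The membrane median ran from -0.03 without WT replicate 1 to 0.29 without IRF8KO replicate 1, against 0.16, the lipid median from -0.30 without IRF8KO replicate 1 and -0.23 without WT replicate 2 to -0.05 without IRF8KO replicate 2, against -0.11, and the protease median was 0.03 without IRF8KO replicate 1, against 0.15. With the authors' fold enrichment in place of pileup the pump count was 2 higher, and the lipid count was 6 lower. The pump median fell to 0.41 without centring and to 0.24 with fold enrichment, and the lipid median was 0.03 with fold enrichment. With missing peaks set to each library's lowest deposited pileup, which brings in all 251 distal regions, the pump genes had 12 higher and 2 lower of 32. The proteases then turned to 8 higher and 13 lower of 75, with a median of -0.18 in place of 0.15. The protease and membrane medians were also below 0 without centring, at -0.16 and -0.14.

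**Figure D3:**
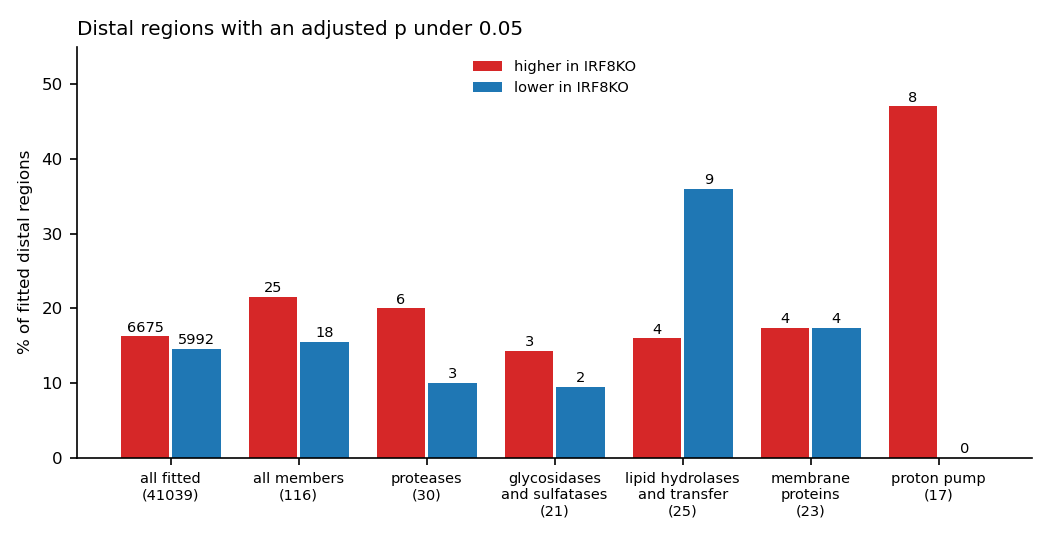
Share of fitted distal regions called higher (red) or lower (blue) in IRF8KO, for all regions, for all lysosomal genes and by role, with the number called above each bar and the number fitted in brackets. The 5 proton pump genes have 8 higher and 0 lower of 17, and all 8 lie at Atp6v0d2 and Atp6v1a. Lipid genes have 4 higher and 9 lower of 25. The 11 further pump genes, not drawn, had 5 higher and 3 lower of 25.

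Scarb2 held the region with the largest loss and 2 of the largest gains. It encodes LIMP-2, a membrane protein that carries glucocerebrosidase to the lysosome, and had 16 distal regions. An intronic region 38.4 kb from the nearest annotated start of the gene, from which all distances in the text are counted (chr5:92467073-92467353) had 1.75 and 1.31 PPM in WT and 0.140 and 0.302 in IRF8KO. Both IRF8KO libraries were far below both WT libraries, a difference of -2.58 ± 0.60 (limma adjusted p 8.27e-11) or 5.96-fold lower. A region in the last, untranslated part of the gene, 64.0 kb from the start (chr5:92441488-92441815), had 2.45 and 2.15 in WT and 0.457 and 0.529 in IRF8KO, a difference of -1.92 ± 0.48 (limma adjusted p 8.24e-10).

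In contrast, 2 regions near the Scarb2 start were more open in IRF8KO. The one in the intron, 5.95 kb from the start (chr5:92499308-92499830), had 0.447 and 0.430 PPM in WT and 1.17 and 1.47 in IRF8KO (1.88 ± 0.54, limma adjusted p 3.68e-08). The one 3.46 kb upstream (chr5:92508788-92509267) had 1.77 and 1.41 in WT and 2.59 and 4.33 in IRF8KO (1.39 ± 0.37, limma adjusted p 6.94e-09). A further intronic region, with 0.490 and 0.266 in WT, had no peak in IRF8KO. The first 3 of these 4 called regions kept their calls in all 12 alternatives, and the upstream region lost it only without centring (limma adjusted p 0.0852). The promoter region did not pass the threshold, at 5.09 and 4.58 in WT and 3.81 and 4.50 in IRF8KO (0.08 ± 0.32, limma adjusted p 0.779).

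**Figure D4:**
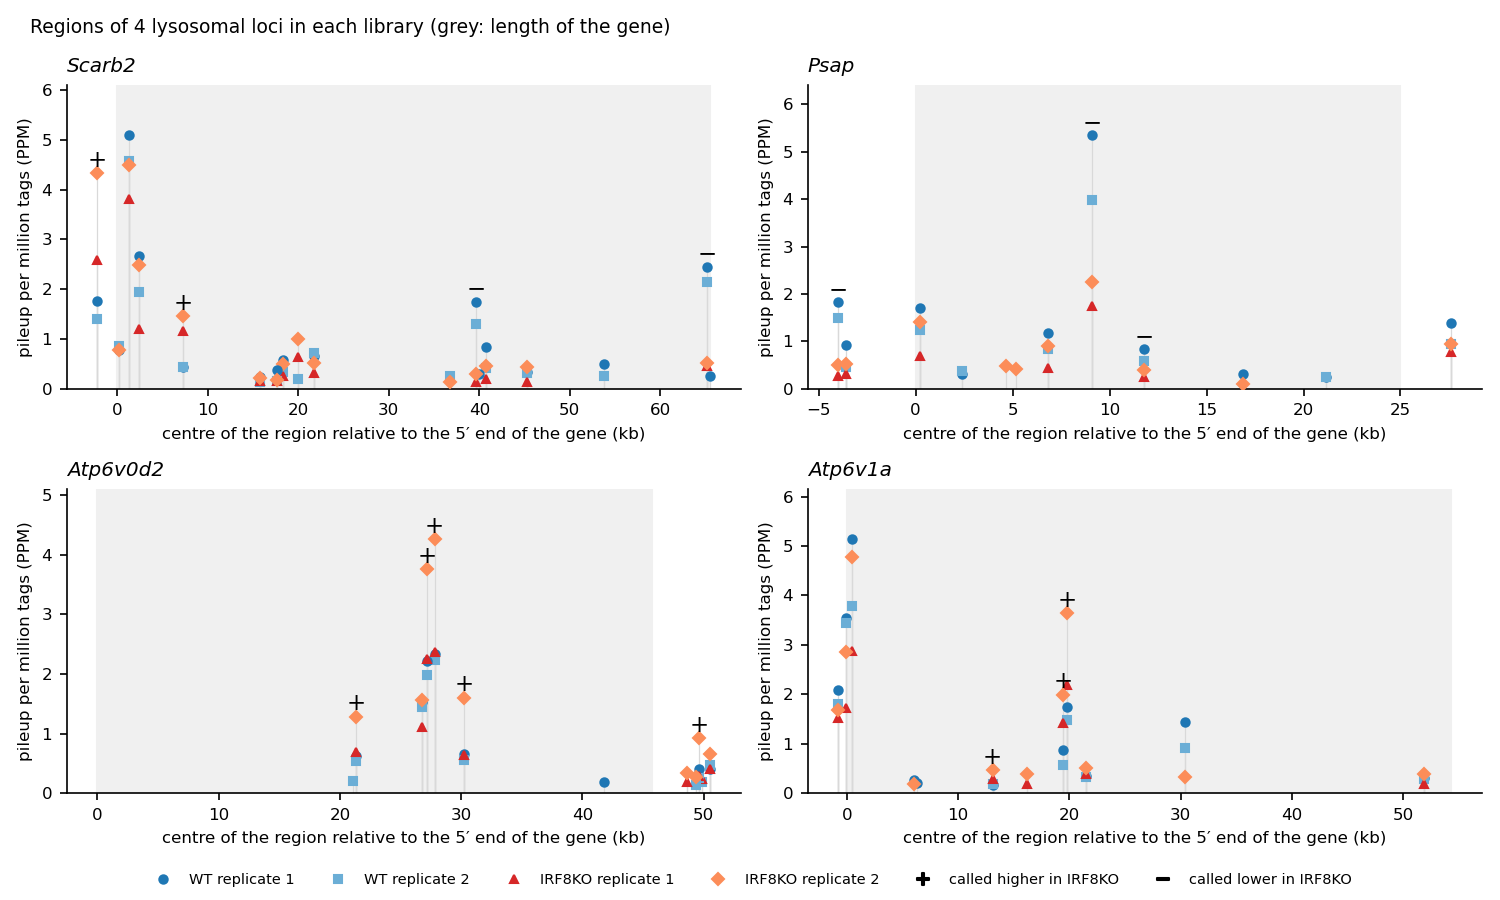
Pileup in PPM in each library for every region of Scarb2, Psap, Atp6v0d2 and Atp6v1a, placed by the distance of its centre from the 5′ end of the gene in the direction of transcription (the distances in the text are from the nearest own TSS). Grey shows the length of the gene, and + and − mark regions called higher or lower in IRF8KO. Scarb2 has higher regions near its start and lower ones farther into the gene, Psap only lower ones, and both pump genes only higher ones.

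Among the lipid genes, Psap, the precursor of the saposins that activate sphingolipid hydrolases, had 3 lower regions, and all 5 of its fitted distal regions lay below 0. The upstream region, 4.09 kb from the start (chr10:60273431-60273846), had 1.83 and 1.49 PPM in WT and 0.279 and 0.498 in IRF8KO (-1.84 ± 0.53, limma adjusted p 3.73e-08). The strongest, in an intron 2.30 kb from a start and singled out after its values were seen, had 5.35 and 3.99 in WT and 1.75 and 2.25 in IRF8KO (-0.91 ± 0.35, limma adjusted p 2.32e-05). The Psap promoter itself was weak, with 1.70, 1.25, 0.698 and 1.42, and did not pass the threshold (limma adjusted p 0.496).

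Npc2 and Npc1 hand cholesterol from the lumen to the lysosomal membrane. The Npc2 region downstream of the gene (chr12:84751353-84751594) had 1.38 and 0.941 PPM in WT and 0.203 and 0.378 in IRF8KO (-1.74 ± 0.59, limma adjusted p 2.54e-06). A Npc2 intron region (chr12:84766403-84766611) had 0.959 and 0.695 in WT and 0.203 and 0.438 in IRF8KO (-1.15 ± 0.62, limma adjusted p 0.00302). Its groups did not overlap, but its call ended without WT replicate 1 (limma adjusted p 0.0519), without IRF8KO replicate 1 (0.0733) or without centring (0.0593). An Npc1 intron region had 1.45 and 0.900 in WT and 0.419 and 0.468 in IRF8KO (-1.06 ± 0.55, limma adjusted p 0.00201), a call lost without WT replicate 1 (0.0895), without IRF8KO replicate 2 (0.0756) or without centring (0.0667).

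Asah1, the acid ceramidase gene, had 1 lower region and 3 WT-specific ones, defined as strict in both WT libraries with no deposited peak in either IRF8KO library. An intron region 10.7 kb from the start (chr8:41363995-41364245) had 1.51 and 1.23 PPM in WT and 0.330 and 0.755 in IRF8KO (-1.14 ± 0.53, limma adjusted p 4.12e-04), a call kept in all 12 alternatives. The strongest WT-specific region of Asah1 lay 1.42 kb upstream of the start, at 1.19 and 0.839 PPM. The Asah1 promoter was among the strongest and did not pass the threshold, at 8.88 and 7.30 in WT and 5.97 and 9.05 in IRF8KO (0.17 ± 0.28, limma adjusted p 0.418).

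Of the proteases, Ctsh had the largest fall, in an intronic region 6.26 kb from the start (chr9:90059885-90060799). It stood at 2.51 and 1.94 PPM in WT and 0.228 and 0.423 in IRF8KO, so that the lowest WT value was several times the highest IRF8KO value. The difference was -2.53 ± 0.52 (limma adjusted p 1.10e-12), and the call was kept in all 12 alternatives. Lgmn had 19 distal regions, 1 of them higher and 1 lower. The lower one (chr12:102426327-102426731) had 3.15 and 2.37 in WT and 1.14 and 1.18 in IRF8KO (-0.93 ± 0.41, limma adjusted p 2.58e-04), and it lost its call only with fold enrichment in place of pileup (0.623). Ctsl, a cathepsin of broad specificity, had 2 higher regions upstream. The larger change (chr13:64373635-64374038) was from 0.490 and 0.470 in WT to 0.774 and 1.47 in IRF8KO (1.45 ± 0.55, limma adjusted p 1.74e-05), lost only without centring (0.151).

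The largest gain at any of the 46 genes lay in Arsb, the sulfatase of dermatan sulfate, which also had the most distal regions, 23. The intronic region 168.04 kb from the start (chr13:93939300-93940159) had 0.937 and 0.716 PPM in WT and 2.41 and 3.52 in IRF8KO. Both IRF8KO libraries were higher, a difference of 2.13 ± 0.42 (limma adjusted p 2.39e-13) or 4.39-fold, and the call was kept in all 12 alternatives. In Galc, the galactocerebrosidase that acts on myelin lipids, an intron region (chr12:98215481-98216048) had 0.469 and 0.245 in WT and 0.444 and 1.03 in IRF8KO. These groups overlapped in PPM, and the difference of 1.30 ± 0.64 (limma adjusted p 0.00102) lost its call without IRF8KO replicate 2 (0.109) and without centring (0.28). At Man2b1, an alpha-mannosidase, an intron region was lower, with 0.554 and 0.409 in WT and 0.152 and 0.181 in IRF8KO (-1.21 ± 0.72, limma adjusted p 0.00709). That call was lost without IRF8KO replicate 2 (0.0917) or WT replicate 1 (0.075).

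Cd63 gained at 2 distal regions as well as at the promoter. The stronger change (chr10:128911423-128911688, coding exon) was from 0.341 and 0.286 PPM in WT to 0.597 and 0.951 in IRF8KO (1.57 ± 0.62, limma adjusted p 3.94e-05). It held when any 1 library was left out. With fold enrichment its adjusted p was 0.103, and without centring 0.12.

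At the proton pump, Atp6v1a had 3 higher regions in its introns. The largest change (chr16:44120171-44120431) was from 0.873 and 0.573 PPM in WT to 1.42 and 1.99 in IRF8KO (1.56 ± 0.47, limma adjusted p 1.74e-07). Its neighbour (chr16:44119733-44120115) had 1.75 and 1.47 in WT and 2.18 and 3.64 in IRF8KO (1.12 ± 0.38, limma adjusted p 2.52e-06). In both, the 2 genotypes were apart, and both calls were kept whichever library was left out. They ended without centring (limma adjusted p 0.0717 and 0.266) and with fold enrichment (0.056 and 0.609). The weakest of the 3 regions (chr16:44126475-44126741), with 0.170 and 0.184 in WT and 0.279 and 0.468 in IRF8KO (1.33 ± 0.74, limma adjusted p 0.00361), lost its call without either IRF8KO library (0.0563 and 0.0726), without WT replicate 1 (0.0667) or without centring (0.194).

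Atp6v0d2, without an open promoter, had 12 distal regions, and 5 of the 7 fitted were higher. The strongest of them, in an intron 27.8 kb from the start and singled out after its values were seen, had 2.34 and 2.23 PPM in WT and 2.37 and 4.26 in IRF8KO (0.78 ± 0.36, limma adjusted p 4.56e-04). IRF8KO replicate 1 was thus at the WT level in PPM and higher only relative to its own median region. The 5 differences ran from 0.78 to 1.04, and none was called without centring. With fold enrichment in place of pileup the proton pump genes as a whole had 2 higher distal regions, so not all 5 of these calls held.

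Some regions had a peak in only one genotype. A region was called specific when strict in both libraries of a genotype with no deposited peak in either library of the other. There were 19 WT-specific regions, 3 promoter and 16 distal, or 5.35% of the 355, and 13 IRF8KO-specific ones, 2 promoter and 11 distal, or 3.66%. Over all 155546 regions the shares were 5.58% and 3.86% (promoter regions 2.44% and 2.19%, distal regions 6.22% and 4.2%). WT-specific regions occurred at 14 genes, IRF8KO-specific at 10, and both kinds at 5. All were weak to moderate, from 0.205 to 1.68 PPM in WT and from 0.152 to 1.10 in IRF8KO. The lowest deposited pileup was 0.128 and 0.123 PPM in WT and 0.102 and 0.106 in IRF8KO, so a weak peak could be listed at a lower level in the deeper IRF8KO libraries.

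The strongest WT-specific region lay in an untranslated or non-coding exon of Tpp1 (chr7:105746272-105746759), at 1.68 and 1.10 PPM. Lipa, the acid lipase that frees cholesterol from its esters, had 2 adjacent intronic ones, with 0.746 and 0.532 PPM and with 0.596 and 0.573. Ctsk had 1, at 0.724 and 0.450, and Ppt1 had 1, at 0.554 and 0.614. Ctsc, the activator of granule serine proteases, had 1 at 0.405 and 0.430. At promoters, Gusb had 1 at 1.02 and 0.941, 0.41 kb into the gene, and Lgmn had 1 at 0.660 and 0.389. The main promoter peaks of Gusb and Lgmn were present in all 4 libraries.

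The strongest IRF8KO-specific regions lay at Hexa and Ctsb. The Hexa region, 1.66 kb upstream of the start (chr9:59537763-59538039), had 0.635 and 1.10 PPM. The Ctsb region, in an intron 10.03 kb from the start (chr14:63132320-63132703), had 0.825 and 1.06. Ctsb encodes cathepsin B, and had 12 distal regions in all, none of the 4 fitted ones called. A second Ctsb region downstream had 0.254 and 0.166. Galc had 2, at 0.317 and 0.559 and at 0.432 and 0.664, Lamp1 had 1 at 0.508 and 0.800, and Atp6v1h had 1 at 0.381 and 0.680. Arsb, with 0.178 and 0.317, and Ppt1, with 0.330 and 0.513, had weaker ones. At the Ctsc promoter a region 0.95 kb upstream had 0.546 and 0.544.

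Motifs were then read within 100 bp of the summits of these distal regions, on both strands. The ETS-IRF composite GGAANNGAAA was found in 4 of the 18 lower regions, 22.2%, against 13.4% of all lower distal regions. It was found in 3 of 16 WT-specific regions, against 19.2% of all WT-specific distal regions. Only 1 of the 25 higher regions (at Atp6v0d2) and 0 of 11 IRF8KO-specific regions held it, against 2.55% and 1.92% of all. In fitted regions that were not called, it was in 4 of 73, against 3.27% of all. The sites are printed to show the letters behind these counts, which are matches and not measured binding. They are on the plus strand of GRCm38 with the element in capitals, and at Lamp1 it reads on the minus strand.
Scarb2, lower, untranslated exon, chr5:92441606-92441635: taaagcacaaGGAAGTGAAAtctactgggc
Scarb2, lower, intron, chr5:92467151-92467220: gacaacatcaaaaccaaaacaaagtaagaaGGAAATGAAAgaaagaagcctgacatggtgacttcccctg
Asah1, lower, intron, chr8:41364105-41364174: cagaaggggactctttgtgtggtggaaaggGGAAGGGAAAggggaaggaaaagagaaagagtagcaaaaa
Lamp1, lower, upstream, chr8:13155568-13155637: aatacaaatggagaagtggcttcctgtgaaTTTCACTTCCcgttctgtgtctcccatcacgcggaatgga
Ctsc, WT-specific, intron, chr7:88303652-88303721: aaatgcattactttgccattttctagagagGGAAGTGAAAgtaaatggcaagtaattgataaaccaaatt
Ctsh, WT-specific, intron, chr9:90070212-90070281: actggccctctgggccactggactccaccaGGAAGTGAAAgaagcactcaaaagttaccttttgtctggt
Asah1, WT-specific, intron, chr8:41363837-41363906: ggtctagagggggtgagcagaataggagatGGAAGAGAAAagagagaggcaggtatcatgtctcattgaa
Atp6v0d2, higher, intron, chr4:19901231-19901300: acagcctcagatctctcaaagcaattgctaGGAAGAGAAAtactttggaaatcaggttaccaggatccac

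The 2 Asah1 sites belong to neighbouring regions, and the Lamp1 region, 3.62 kb upstream, had 2.26 and 1.94 PPM in WT and 0.685 and 1.45 in IRF8KO (-0.77 ± 0.44, limma adjusted p 0.0047); it was singled out for its element after its values were seen. The strongly lower regions of Ctsh, Psap and Npc2 held no such element in this window.

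The AP-1 motif TGANTCA was in 4 of the 25 higher distal regions, 16.0%, against 18.1% of all higher ones, and in 3 of 11 IRF8KO-specific regions, against 19.6%. The CEBP motif TTGCNNAA was in 6 of the 25 and 4 of the 11, against 17.6% and 21.3%. Lower regions at lysosomal genes held AP-1 in 2 of 18 and CEBP in 3 of 18, against 8.06% and 8.61% of all. Lysosomal distal regions that were fitted and not called held AP-1 in 12 of 73 and CEBP in 12 of 73, 16.4% each, against 8.05% and 9.94% of all. The counts are small, and no difference between these shares was tested. AP-1 sites of the region with the largest gain, of the 2 strongest IRF8KO-specific regions and of 2 lower regions are shown with the motif in capitals, since AP-1 letters stood in regions that changed in either direction. The Ctsb and Lgmn regions each hold 2 sites.
Arsb, higher, chr13:93939697-93939763: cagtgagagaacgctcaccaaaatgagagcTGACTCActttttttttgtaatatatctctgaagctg
Hexa, IRF8KO-specific, chr9:59537865-59537931: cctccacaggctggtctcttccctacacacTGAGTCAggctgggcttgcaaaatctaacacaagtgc
Ctsb, IRF8KO-specific, first site, chr14:63132419-63132485: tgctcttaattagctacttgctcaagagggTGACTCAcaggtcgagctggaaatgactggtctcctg
Ctsb, IRF8KO-specific, second site, chr14:63132461-63132527: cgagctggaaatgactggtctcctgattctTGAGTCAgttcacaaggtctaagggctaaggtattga
Lgmn, lower, first site, chr12:102426454-102426520: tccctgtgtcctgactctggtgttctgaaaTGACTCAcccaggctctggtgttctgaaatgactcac
Lgmn, lower, second site, chr12:102426483-102426549: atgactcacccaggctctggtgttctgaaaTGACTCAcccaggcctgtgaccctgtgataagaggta
Ctsh, lower, chr9:90060546-90060612: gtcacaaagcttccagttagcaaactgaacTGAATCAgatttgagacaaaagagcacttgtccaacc

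Other lysosomal genes were counted in the same fit. Over 47 further genes, for enzymes, membrane and sorting proteins, pump subunits, cystatins, progranulin and others, 3 promoter regions were higher and 4 lower of 76, and 26 distal regions were higher and 19 lower of 113. That is 9.21% and 39.8%, beside 8.97% and 37.1% in the genes described above. The genes for the MiT factors, which read the E-box, had 2 higher and 0 lower of 7 promoter regions and 6 higher and 3 lower of 26 distal regions (34.6%), against the backgrounds of 14.0% and 30.9%. The Tfeb promoter region called had 0.256 and 0.327 PPM in WT and 0.800 and 1.16 in IRF8KO (2.04 ± 0.62, limma adjusted p 1.41e-07). A Tfec distal region had 0.170 and 0.205 in WT and 2.18 and 3.81 in IRF8KO (4.25 ± 0.55, limma adjusted p 3.89e-21). The lowest was a Mitf distal region with 1.47 and 1.51 in WT and 0.228 and 0.498 in IRF8KO (-1.84 ± 0.56, limma adjusted p 1.45e-07). These 3 were chosen for their size after their values were seen, and in each the genotypes were apart. The other lower distal regions were 1 at Mitf (-1.26) and 1 at Tfeb (-0.88).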

How the data were processed

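Members and gene lists were chosen with earlier results of these data known. Per the submitters' processing notes, reads were aligned with Bowtie2 to mm10. Peak calling used MACS2 2.1.1.20160309 on 1 library at a time, with no control sample, a p cutoff of 0.01 and cut sites extended to 73 bp, per the file headers. The pileup deposited by the authors is an unscaled signal, a whole number at each summit. The deposited p and q are −log10 values, and the deposited fold enrichment is a ratio to local background.

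Each interval was reduced to 1 peak with its best summit, strict peaks (−log10 q of 2 or more) were merged, and pileup was divided by header tags (PPM, pileup per-million tags). Regions with a deposited peak in all 4 libraries were tested with limma 3.58.1 (empirical Bayes with trend) on centred log2 values, computed here from the deposited pileup, with no pseudocount. A pileup without raw reads allows no count test, and fold changes rest on summit heights. Libraries of the same replicate number did not deviate together over the fitted regions (correlation of deviations 0.0044). This cannot show whether they were handled as pairs. Alternatives covered scaling, measure, pseudocount, missing values, peak threshold, overlap, block and left-out libraries. Named were, per role, the highest and lowest own promoter, all called promoters and the 10 largest distal or promoter changes in each direction, the 10 most significant specific regions per genotype, genes without an open promoter and the 5 with most distal regions.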

Additional observations from a re-analysis of the deposited data

How the results depend on the processing

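The counts of called regions depended on scaling. Without centring, called promoter regions went from 7 to 0 and distal ones from 43 to 11, and the medians from 0.04 to -0.26 at promoters and from 0.10 to -0.20 at distal regions. With fold enrichment the counts were 2 and 22; the cause was not tested. With missing values set to each library's lowest deposited pileup they were 18 and 78, and the distal median was -0.0425; the larger number of regions fitted enters here. Leaving out 1 library at a time gave 2 to 5 promoter calls, 25 to 33 distal calls, promoter medians of -0.06 to 0.11 and distal medians of 0.0239 to 0.136. With a strict threshold of 5, WT-specific regions went from 19 to 12 and IRF8KO-specific ones from 13 to 6. The same omissions gave 24 to 42 regions restricted to WT and 15 to 35 restricted to IRF8KO, since fewer libraries then had to hold or lack a peak. Quantile normalization, a pseudocount of 0.1 PPM, the threshold of 5 and the overlap rule kept both counts of called regions within 1.5 times, and no named call changed direction in any alternative. Replicate numbers did not deviate together (correlation 0.0044). With the replicate block, 8 promoter and 42 distal regions were called, and every named call was kept. With 2 libraries a genotype and weak regions near the lowest deposited pileup, a missing peak is not a measured 0.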
